A study of Saccharomyces cerevisiae with 6 samples.

Results

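The genes described here encode the subunits of the nuclear RNA polymerases I, II and III of *Saccharomyces cerevisiae*, together with *RRN3*, the factor that carries polymerase I to its promoter. They were chosen by gene symbol, and all 32 were measured among 5656 genes, with no filter on low signals. A gene is represented here by the brightest of its probe sets, groups of short oligonucleotides for a transcript. Of the 32 genes, 7 are specific to polymerase I, 7 to polymerase II and 10 to polymerase III, 2 are shared by polymerases I and III, 5 are shared by all of them, and *RRN3* is an initiation factor rather than a subunit. The study grew S288C, a haploid strain (mating type alpha), in minimal dextrose medium and hybridized total RNA to Affymetrix GeneChip Yeast Genome S98 arrays. Cultures at an optical density (OD) of 0.2 received 70 μM pterostilbene, a dimethylether of resveratrol dissolved in dimethyl sulfoxide (DMSO), or 0.25% DMSO alone, and were harvested at an OD of 0.5. There were 3 pterostilbene-treated cultures and 3 solvent control cultures, independently grown, with 1 array each. The dose was set by its inhibition of growth, so an effect of slower growth or of the hour of harvest cannot be told apart from one of the compound. The DMSO percentage in the treated cultures is not stated, so an effect of unequal solvent cannot be told apart either.

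Polymerase I makes the large ribosomal RNA precursor, polymerase II the messenger RNAs, and polymerase III the tRNAs and other small RNAs. Each enzyme has a core of related subunits: a largest and a smaller catalytic subunit that form the active centre, an alpha-like pair on which the enzyme assembles, a stalk of paired subunits, and a zinc ribbon subunit that acts in RNA cleavage, with the small shared subunits built into all of them. Ribosomal RNA and tRNA synthesis take up a large part of the transcription of a growing yeast cell, and polymerases I and III are known to be held back when growth slows.

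The values are signals on a linear intensity scale, which the authors' software had scaled so that the mean of each array without its extreme signals was about 500. Pearson correlations of log2 signals were 0.967 to 0.975 among the pterostilbene arrays, 0.965 to 0.969 among the control arrays and 0.914 to 0.924 between the groups. The alpha-specific genes *MF(ALPHA)1*, *MF(ALPHA)2*, *SAG1* and *STE3* had mean signals of 69.3 to 5060 in treated cells and 1748 to 12450 in control cells, while 6 genes specific to mating type a lay between 18.9 and 524 in treated cells and between 14.4 and 241 in control cells. The log2 fold changes were -4.73 to -1.305 for the alpha-specific genes and -0.95 to 1.77 for the a-specific genes. In treated cells *MF(ALPHA)2* (69.3), *STE3* (209.7) and *SAG1* (233.7) lay below the a-specific *MFA1* (524), and *MF(ALPHA)1* (5060) above it. The markers thus separate the mating types in control cells but not fully in treated cells. "Rose" and "fell" are used of genes with a limma adjusted p under 0.05, where the adjustment ran over all 9275 tested probe sets, of which 33.5% rose and 14.0% fell. The median log2 fold change over genes was 0.22 with the signals as deposited, -0.13 with quantile normalization, -0.23 with median centring of the arrays and 0.42 with centring on the reference genes *ACT1*, *ALG9*, *TAF10* and *UBC6*. As deposited, these reference genes had log2 fold changes of -0.23, -0.48, -0.26 and 0.17 in turn, and none had an adjusted p under 0.05. Directions are therefore relative to the other transcripts on the arrays.

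On 2 arrays, the probe sets with a low signal were gathered in a stretch of neighbouring probe set numbers, and polymerase genes lay in both stretches, 10 in that of control array B and 3 in that of pterostilbene array C. A probe set was counted as low on a single array when it was more than 0.7 log2 units under the mean of the other arrays of its group, which had to lie within 0.4 of each other. On pterostilbene array C this held for 256 of 5531 probe sets, 249 of them among the 1393 numbered from 3000 to under 5500. On control array B it held for 129, of which 121 were among the 656 numbered from 8000 to under 9000. The other arrays had 3 to 47 such probe sets. Most probe sets of a stretch, *RPB8* and *RPB10* among them, were thus not low by this measure. Probe sets not counted could still be shifted, since the median log2 deviation of pterostilbene C inside its stretch was -0.26. That of control B inside its stretch was -0.02. Among the polymerase genes, *RPA190*, *RPA43*, *RPB2* and *RPO31* were low on control B, at 47.9%, 46.8%, 46.4% and 38.8% of the mean of the other control arrays, and *RPC10* was low on pterostilbene C, at 53.7% of the mean of the other pterostilbene arrays. Outside its stretch pterostilbene C ran high, by a median of 0.18 on the log2 scale over the probe sets considered, and it was the highest of the pterostilbene arrays for 26 of the 29 polymerase genes there. For the polymerase genes that were low on these arrays, results are given with and without them. For other genes of the stretches this was done where stated.

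**Figure D1:**
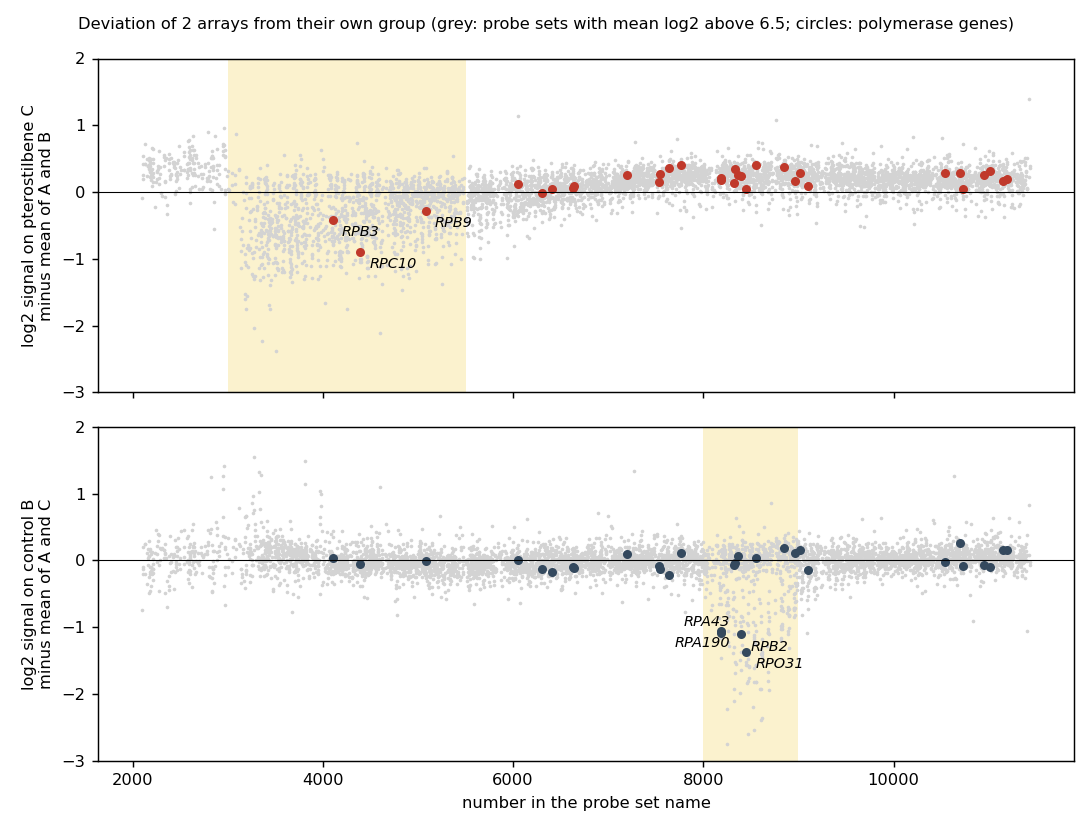
Deviation of pterostilbene array C (top) and control array B (bottom) from the mean of the other arrays of the same group, in log2 signal, against the number in the probe set name. Grey points are the 5531 probe sets with a mean log2 signal above 6.5, circles are the 32 polymerase genes, and the shaded bands mark numbers 3000 to 5500 and 8000 to 9000. *RPC10* sits 0.89 below the other pterostilbene arrays, and *RPA43*, *RPA190*, *RPB2* and *RPO31* sit 1.06 to 1.36 below the other control arrays.

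The first question was how the set as a whole stood in treated cells. Of the 31 subunits, 7 fell, none rose and the other 24 did not pass the test, and *RRN3* rose. The count of members called was thus 1 of 32 higher, or 3.13%, where 35.8% of all genes rose, and 7 of 32 lower, or 21.9%, where 18.4% of all genes fell. The median log2 fold change of the 32 genes was -0.07, against 0.22 over all genes. Their range ran from -0.97 for *RPB8* to 1.39 for *RRN3*, and 17 were negative and 15 positive. The treated cultures were all above the controls for 3 members, *RRN3*, *RPO31* and *RPA14*, and all below them for 10, where 44.2% of all genes lay above and 24.5% below.

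The genes that fell came from 3 of the classes, and 18.4% of all genes fell. Of the 5 subunits common to all polymerases, 3 (60%) fell (*RPB8*, *RPO26* and *RPB10*). Polymerase III contributed 3 of its 10 specific subunits, or 30% (*RPC31*, *RPC34* and *RPC25*). Polymerase I contributed 1 of 7, or 14.3% (*RPA34*), which is near the share of all genes. None of the 7 subunits specific to polymerase II, and neither of those shared by polymerases I and III, passed the test. With the signals as deposited, the median log2 fold change was -0.45 for the common subunits, -0.29 for polymerase I, 0.01 for polymerase II and 0.03 for polymerase III. Over all genes it was 0.22. After quantile normalization these medians were -0.42, -0.47, -0.11 and -0.32 in the same order, against -0.13 over all genes. A difference between these classes was not tested, since the genes of a class are not replicates.

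**Figure D2:**
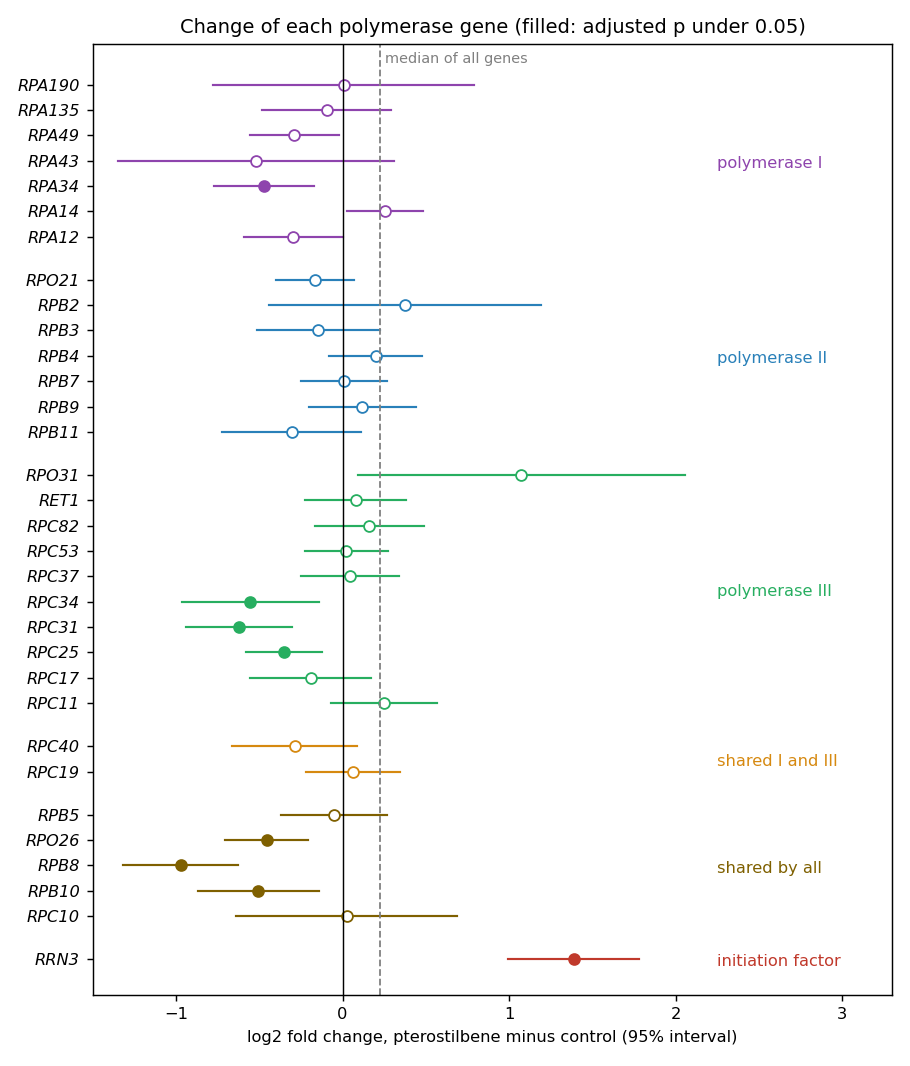
Log2 fold change, pterostilbene minus control, of each of the 32 genes, grouped by the polymerase they belong to. Points are limma estimates from 3 arrays a group, filled where the adjusted p was under 0.05, bars are 95% confidence intervals, and the dashed line is the median of all genes at 0.22. The filled points are *RRN3* at 1.39 and 7 subunits between -0.97 and -0.35.

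*RRN3* (YKL125W) encodes the factor that binds the stalk of polymerase I and joins it to the core factor at the ribosomal DNA promoter. Its signals were 339, 410 and 452 in treated cells, against 153, 172 and 134 in control cells. Every treated culture was above every control culture by a wide margin. The mean was 400.4 ± 57.2 in treated cells and 153 ± 18.8 in control cells (SD, n = 3 each). Its log2 fold change was 1.39 with an SE of 0.16 (limma adjusted p = 0.0015), or 2.61-fold. It was the only one of the 32 genes to rise, and it rose in each of the 16 alternative analyses, with log2 fold changes of 0.93 to 1.59.

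The deepest fall of a subunit was that of *RPB8* (YOR224C), a small subunit built into all the polymerases. Its signals were 871, 948 and 1149 in treated cells, against 2081, 1892 and 1814 in control cells. The groups were far apart, with the highest treated culture well below the lowest control culture. The mean was 989.6 ± 144 in treated cells and 1929 ± 138 in control cells (SD, n = 3 each). Its log2 fold change was -0.97 with an SE of 0.14 (limma adjusted p = 0.0031). Its probe set lies in the stretch of control B, but its control B signal was between the other control signals. It fell in all 16 alternatives, by 0.77 after reference gene centring and by 1.42 after median centring.

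*RPO26* (YPR187W) encodes another common subunit, Rpb6p, which sits at the base of the clamp. It had signals of 1305, 1362 and 1479 in treated cells, against 1869, 1817 and 1993 in control cells, with no overlap. Its log2 fold change was -0.45 with an SE of 0.10 (limma adjusted p = 0.014), and it fell in 13 of the 16 alternatives, where its adjusted p ran up to 0.061. *RPB10* (YOR210W), a small zinc-binding subunit that lies beside the alpha-like pair, had signals of 1442, 1672 and 1701 in treated cells, against 1999, 2208 and 2664 in control cells. The groups did not overlap, but the control cultures differed among themselves by more than those of *RPO26*. Its log2 fold change was -0.51 with an SE of 0.15 (limma adjusted p = 0.035), and 9 of the 16 alternatives did not call it, with adjusted p up to 0.099.

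The 2 remaining common subunits did not pass the test. *RPB5* (YBR154C), part of the lower jaw of the enzyme, had signals of 871, 931 and 1075 in treated cells, against 1048, 1034 and 898 in control cells, with overlap. *RPC10* (YHR143W-A), a small zinc-binding subunit also known as Rpb12p, had 801, 872 and 449 in treated cells, against 658, 651 and 693 in control cells. The pterostilbene cultures lay on both sides of the controls. The third pterostilbene value is from array C, for which this probe set was among the low ones. The log2 fold change of *RPC10* was 0.03 (95% interval -0.64 to 0.69), and without that array it was 0.32 (adjusted p = 0.046 in limma).

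Of the polymerase III subunits, *RPC82*, *RPC34* and *RPC31* form a trimer that opens the promoter, and the first of these did not pass the test while the others fell. *RPC31* (YNL151C) had signals of 208, 228 and 266 in treated cells, against 346, 385 and 346 in control cells. Its log2 fold change was -0.62 with an SE of 0.13 (limma adjusted p = 0.011), and it fell in all 16 alternatives. *RPC34* (YNR003C), which contacts the initiation factor TFIIIB, had 101, 120 and 143 in treated cells, against 183, 192 and 157 in control cells. The nearest treated and control values of *RPC34* were close, and its log2 fold change was -0.55 with an SE of 0.17 (limma adjusted p = 0.038). It fell in 8 of the 16 alternatives and did not pass without control B (adjusted p = 0.11). *RPC82* (YPR190C) had 309, 348 and 397 in treated cells, against 303, 295 and 341 in control cells, and did not pass the test (log2 fold change 0.16, 95% interval -0.17 to 0.49).

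The stalk of polymerase III is made of *RPC25* and *RPC17*. *RPC25* (YKL144C) had signals of 171, 175 and 179 in treated cells, against 221, 214 and 235 in control cells. Its treated cultures were close together and all below the controls, and the log2 fold change was -0.35 with an SE of 0.09 (limma adjusted p = 0.024). It fell in 9 of the 16 alternatives and did not pass without control B (adjusted p = 0.056). *RPC17* (YJL011C) had 84.1, 82.7 and 104 in treated cells, against 94.2 to 117 in control cells, with overlap and a log2 fold change of -0.19 (95% interval -0.56 to 0.17). The TFIIF-like pair *RPC53* and *RPC37*, which acts in termination and reinitiation, stood near 0 with the signals as deposited, at 0.02 and 0.05 on the log2 scale. *RPC53* had a 95% interval of -0.23 to 0.27. After median centring both fell, at -0.43 for *RPC53* and -0.41 for *RPC37*. The zinc ribbon subunit *RPC11*, needed for RNA cleavage at the end of a gene, had a log2 fold change of 0.25 (95% interval -0.07 to 0.57) and rose only after reference gene centring among the alternatives.

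Neither catalytic subunit of polymerase III passed the test with all arrays. *RPO31* (YOR116C), the largest subunit, had signals of 637, 720.4 and 698 in treated cells, against 470.4, 173 and 423 in control cells. All treated cultures were above all controls, but the second control value is that of array B, where this probe set was low. The log2 fold change was 1.07 with an SE of 0.40 (limma adjusted p = 0.071), and without control B it was 0.62 (adjusted p = 0.022). The estimate thus became smaller and passed the test at the same time, and over all its alternatives the adjusted p ran between 0.012 and 0.23. *RET1* (YOR207C), the second catalytic subunit, had 946, 1068 and 1206 in treated cells, against 977, 1042 and 1017 in control cells, with overlap and a log2 fold change of 0.08 (95% interval -0.22 to 0.38).

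The subunit specific to polymerase I that fell was *RPA34*, which with *RPA49* forms a TFIIF-like pair that stabilizes initiation and elongation. *RPA34* (YJL148W) had signals of 480, 500.2 and 562 in treated cells, against 737, 762 and 640 in control cells. The groups did not overlap, and the log2 fold change was -0.47 with an SE of 0.12 (limma adjusted p = 0.023). It fell in 10 of the 16 alternatives and did not pass without control B (adjusted p = 0.075). *RPA49* (YNL248C) had 574, 612 and 632 in treated cells, against 719, 691 and 814 in control cells, also with no overlap, but it did not pass the test (log2 fold change -0.29, adjusted p = 0.075). *RPA12* (YJR063W), the zinc ribbon subunit, was similar, with 330.1, 361 and 413 in treated cells, against 437, 435 and 478 in control cells, and a log2 fold change of -0.29 (adjusted p = 0.094). Both *RPA49* and *RPA12* fell after quantile normalization and after median centring.

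*RPA43* and *RPA14* encode the stalk of polymerase I, to which Rrn3p binds through A43. *RPA43* (YOR340C) had signals of 274, 343 and 354 in treated cells, against 573, 279 and 617 in control cells. The control value inside the range of the treated cultures is that of array B. With all arrays the log2 fold change was -0.52 (adjusted p = 0.25 in limma), and without control B it was -0.89 (adjusted p = 0.015). *RPA14* (YDR156W) had 1105, 1093 and 1094 in treated cells, against 933, 865 and 961 in control cells. Its groups did not overlap in the upward direction, with a log2 fold change of 0.26 (adjusted p = 0.066).

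*RPA190* (YOR341W), the largest subunit of polymerase I, is the direct neighbour of *RPA43* on chromosome XV in the RefSeq gene table, with no gene between them. It is the only member with several probe sets, 7 in all. The brightest had signals of 1645, 1804 and 1955 in treated cells, against 2363, 1097 and 2211 in control cells, with a log2 fold change of 0.01 (95% interval -0.78 to 0.79). The low control value is again that of array B, and without it the log2 fold change was -0.35 (adjusted p = 0.11 in limma). The next brightest probe set, whose number lies outside the stretch of control B, had 847, 999.5 and 1239 in treated cells, against 1237, 1332 and 1081 in control cells, and a log2 fold change of -0.25 (adjusted p = 0.28). On this probe set control B, at 1332, was the highest control array. A further probe set passed the test, with 319.9, 419.8 and 526 in treated cells, against 616, 621 and 647 in control cells, and a log2 fold change of -0.60 (adjusted p = 0.048). The others had log2 fold changes of -0.53, -0.81, -0.44 and 0.13 and did not pass, the last at signals of 22.7 to 34.9 over all arrays. *RPA135* (YPR010C), the second catalytic subunit, had 1342, 1514 and 1893 in treated cells, against 1726, 1766 and 1540 in control cells, and did not pass the test (log2 fold change -0.10, 95% interval -0.49 to 0.29).

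**Figure D3:**
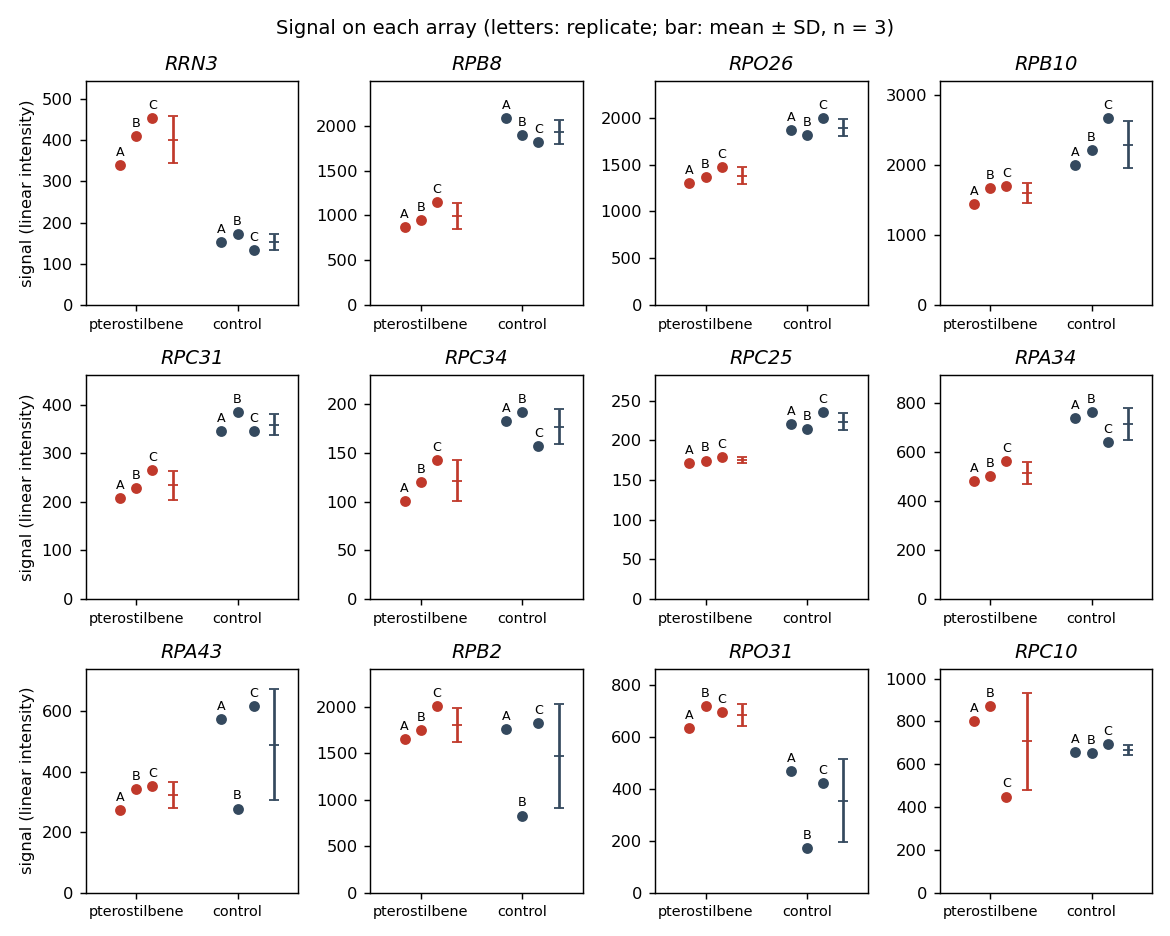
Signal of 12 polymerase genes on each array, on linear axes that start at 0, with pterostilbene cultures left of control cultures. Letters name the replicate, and bars are the mean ± SD (n = 3). *RRN3* is higher in all treated cultures, the 7 subunits that fell are lower in all of them, and in the bottom row 1 array of a group stands apart, control B for *RPA43*, *RPB2* and *RPO31* and pterostilbene C for *RPC10*.

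No subunit specific to polymerase II passed the test, and their log2 fold changes lay between -0.31 and 0.38. *RPO21* (YDL140C), the largest subunit, which carries the repeated C-terminal tail, had signals of 2070, 2147 and 2244 in treated cells, against 2517, 2298 and 2440 in control cells. All treated values were lower, by a small margin, and the log2 fold change was -0.17 (95% interval -0.40 to 0.07). *RPB2* (YOR151C), the second catalytic subunit, had 1651, 1753 and 2007 in treated cells, against 1757, 830.4 and 1823 in control cells. The log2 fold change was 0.38 with all arrays and 0.01 without control B. The stalk subunits *RPB4* and *RPB7* had log2 fold changes of 0.20 (95% interval -0.08 to 0.48) and 0.01 (-0.25 to 0.27), and the zinc ribbon subunit *RPB9* had 0.12 (-0.20 to 0.44). All 3 intervals include 0. Of the alpha-like pair, *RPB3* had a log2 fold change of -0.15 (95% interval -0.52 to 0.23) and *RPB11* had -0.31 (-0.72 to 0.11). *RPB3* and *RPB9* lie in the stretch of pterostilbene C, and without that array their log2 fold changes were -0.01 and 0.21. The intervals of *RPO21*, *RPB2*, *RPB3* and *RPB11* reach to or beyond -0.35, the change of *RPC25*, the smallest among the subunits that fell, and those of *RPB4*, *RPB7* and *RPB9* do not.

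*RPC40* and *RPC19* are the alpha-like pair that polymerases I and III have in common. *RPC40* (YPR110C) had signals of 479, 465 and 603 in treated cells, against 614, 566 and 702 in control cells. The groups overlapped, and the log2 fold change was -0.29 (95% interval -0.66 to 0.09). *RPC19* (YNL113W) had 1581, 1805 and 1885 in treated cells, against 1577, 1762 and 1701 in control cells, and a log2 fold change of 0.06 (95% interval -0.22 to 0.34).

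How far these directions depend on the scaling of the arrays was examined for all members. *RRN3* was higher and *RPB8* and *RPC31* were lower under every scaling. With quantile normalization 11 subunits fell, 5 of polymerase III, 3 of polymerase I, 2 of the common subunits and *RPC40*, where 21.6% of all genes rose and 30.4% fell. With median centring 21 fell, 4 of them specific to polymerase II, where 19.3% of all genes rose and 39.0% fell, and with reference gene centring 2 fell and 5 rose, where 12.1% of all genes fell and 46.3% rose. The 5 that rose were *RPA14*, *RPB4*, *RPO31*, *RPC82* and *RPC11*. With the stretches of both arrays treated as missing, 3 members rose and 6 fell, where 37.4% of all genes rose and 19.0% fell. The median of the 32 genes lay below that of all genes under each scaling, at -0.24 against -0.13 for quantile normalization, -0.53 against -0.23 for median centring and 0.13 against 0.42 for reference gene centring. Either centring shifts all genes alike and cannot change this gap, so it is no further check. Quantile normalization can change the gap, and made it smaller than with the signals as deposited (-0.07 against 0.22).

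**Figure D4:**
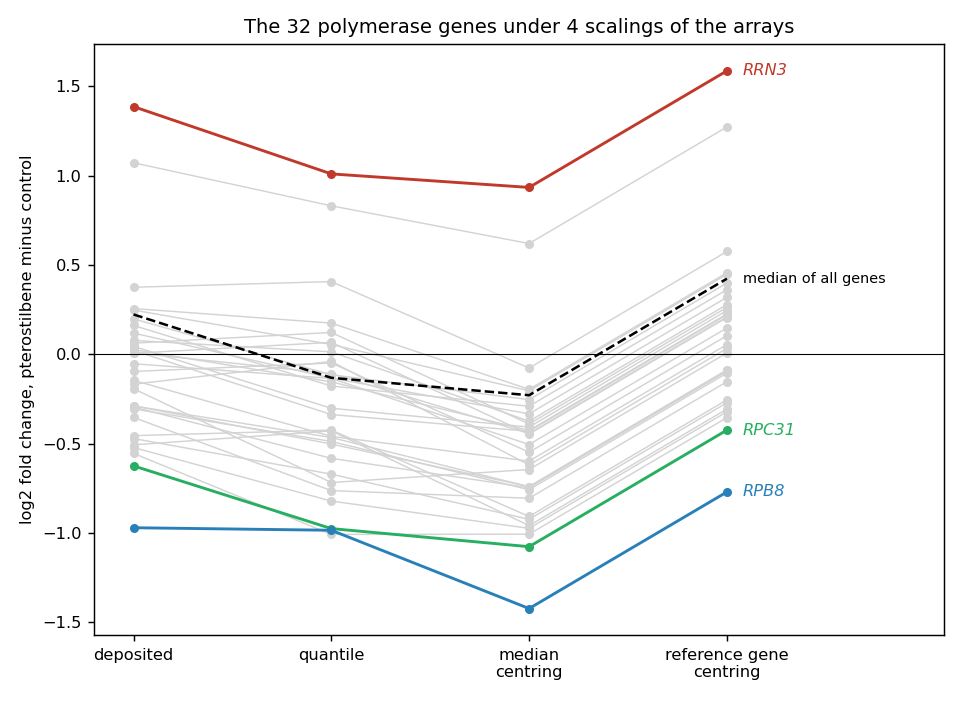
Log2 fold change, pterostilbene minus control, of the 32 polymerase genes (lines) with the signals as deposited and after quantile normalization, median centring and reference gene centring. The dashed line is the median of all genes, at 0.22, -0.13, -0.23 and 0.42, and *RRN3* stays at 0.93 or higher while *RPB8* stays at -0.77 or lower.

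Homologous subunits of the enzymes were then set against each other within each array, a difference that does not move when a whole array is scaled. Over 17 pairs from 7 families, the treated and control values did not overlap for 6. No such share was computed over other pairs of genes, and of single genes 44.2% lay above and 24.5% below. With 3 arrays a group, a two-sided exact permutation test cannot go below p = 0.1, and the smallest p adjusted over the pairs was 0.28, so none passed. *RPA190* against *RPO31*, the largest subunits of polymerases I and III, had a difference in log2 change of -1.07 (SE 0.11, exact permutation p = 0.1, n = 3 each). Both of these genes were low on control B, and without their values there the difference was -0.96. *RPO31* against *RPO21* had 1.24 with all arrays and 0.82 without control B, and did not overlap in either case. Quantile normalization, unlike a scaling of whole arrays, can move such differences. With it *RPA190* against *RPO31* had -0.76 and *RPO31* against *RPO21* had 0.87, and 8 of the 17 pairs did not overlap.

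The other pairs without overlap came from the smaller subunits, and none of their probe sets lies in a low stretch. *RPA12* against *RPC11*, the zinc ribbon subunits of polymerases I and III, had a difference in log2 change of -0.54 (SE 0.16), with treated arrays between -0.63 and -0.40 and control arrays between -0.26 and 0.20 around the control mean. The stalk subunit *RPC25* against *RPB7* had -0.36 (SE 0.10). For the smaller stalk subunits, *RPA14* against *RPC17* had 0.45 (SE 0.15) and *RPC17* against *RPB4* had -0.39 (SE 0.12), whereas *RPA14* and *RPB4* differed in change by 0.06 (SE 0.13). After quantile normalization the difference was -0.64 for *RPA12* against *RPC11* and -0.65 for *RPC25* against *RPB7*. It was then 0.89 for *RPA14* against *RPC17*, -0.60 for *RPC17* against *RPB4* and 0.29 for *RPA14* against *RPB4*.

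**Figure D5:**
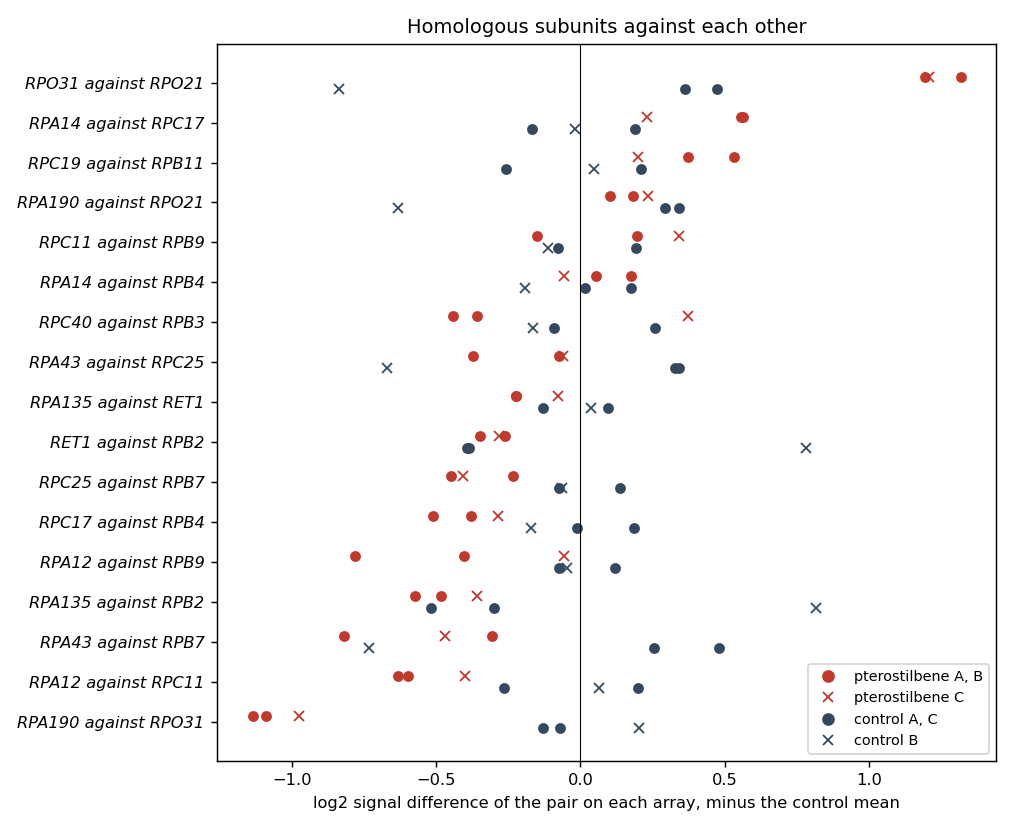
Difference of log2 signal between 2 homologous subunits on each array, minus the mean of that difference over the control arrays, for 17 pairs. Circles are pterostilbene arrays A and B and control arrays A and C, and crosses are pterostilbene C and control B, the arrays with low stretches. The largest differences are *RPA190* against *RPO31* at -1.07 and *RPO31* against *RPO21* at 1.24.

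The factors that work with each polymerase were read from lists of known genes. Over all genes 35.8% rose and 18.4% fell. Of 8 other factors of polymerase I, 5 (62.5%) rose and 1 (12.5%) fell, with a median log2 fold change of 0.62 against 0.22 over all genes. After median centring 2 still rose, *RRN6* and *RRN11*, where 19.3% of all genes did. The core factor, which Rrn3p meets at the promoter, has *RRN6*, *RRN7* and *RRN11* as subunits. *RRN11* had a mean signal of 134 ± 18.4 in treated cells and 49.2 ± 14.6 in control cells (SD, n = 3 each). For *RRN11* this was a log2 fold change of 1.49 with an SE of 0.26 (limma adjusted p = 0.0058). *RRN6* had 339.9 ± 26.7 in treated cells and 150.1 ± 19.0 in control cells (SD, n = 3 each). This was a log2 fold change of 1.18 with an SE of 0.14 (limma adjusted p = 0.0015). *RRN7* had a log2 fold change of 0.98 (adjusted p = 0.021). *RRN7* did not pass after quantile normalization (adjusted p = 0.15) or median centring (adjusted p = 0.12). *RRN5*, of the upstream activation factor, fell, with a log2 fold change of -0.64 (adjusted p = 0.0065). With its probe sets averaged it did not pass, at -0.25 on the log2 scale (adjusted p = 0.089).

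Of 10 factors of polymerase III, 1 rose and 1 fell with the signals as deposited, where 35.8% and 18.4% of all genes did. The median log2 fold change was 0.06 against 0.22. The gene that rose was *BDP1*, a subunit of TFIIIB, with a mean signal of 227 ± 26.9 in treated cells and 90.7 ± 31.7 in control cells (SD, n = 3 each). For *BDP1* this was a log2 fold change of 1.38 with an SE of 0.28 (limma adjusted p = 0.010). Its probe set lies in the stretch of control B, and without that array the log2 fold change was 1.11 (limma adjusted p = 0.014). The gene that fell was *MAF1*, the repressor of polymerase III that acts when growth is restrained, with 100.1 ± 7.36 in treated cells and 157 ± 23.2 in control cells (SD, n = 3 each). For *MAF1* this was a log2 fold change of -0.64 with an SE of 0.14 (limma adjusted p = 0.014), and it was not called without pterostilbene B (adjusted p = 0.053). *BRF1*, another TFIIIB subunit, had a log2 fold change of -0.45 (adjusted p = 0.063), and the 6 subunits of TFIIIC in the list stood between -0.11 and 0.17. *BRF1* and *TFC4*, of TFIIIC, lie in the stretch of pterostilbene C, and without that array they had -0.34 and 0.21. *TFC7*, also of TFIIIC, lies in the stretch of control B and had -0.20 without it. After quantile normalization 1 of the 10 factors rose and 4 fell, where 21.6% and 30.4% of all genes did. Those that fell were *MAF1*, *BRF1*, *TFC7* and *TFC8*, another TFIIIC subunit. The median of the 10 was then -0.39 against -0.13 over all genes. *SPT15*, the TATA-binding protein that serves all the polymerases, fell, with a log2 fold change of -0.43 (adjusted p = 0.041), and was not called after reference gene centring (adjusted p = 0.15), with the methods' t-test, with the replicate block or when any array other than control B was left out.

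Of 18 general factors of polymerase II, 6 (33.3%) rose and 1 (5.56%) fell, a share of rises near the 35.8% of all genes, with a median log2 fold change of 0.26. The largest rise was that of *SSL2*, a helicase subunit of TFIIH, with a mean signal of 199.5 ± 26.6 in treated cells and 80.4 ± 3.14 in control cells (SD, n = 3 each). Its log2 fold change was 1.30 with an SE of 0.13 (limma adjusted p = 0.0010), and 1.42 without pterostilbene C, in whose stretch it lies. *CCL1*, a cyclin of TFIIH, had 0.62 and *TFB1*, also of TFIIH, had 0.60 on the log2 scale, while *TFB2*, of the same complex, fell (-0.53). *TFB2* was not called after reference gene centring (adjusted p = 0.17), with the methods' t-test, with the replicate block or without control A, control B, pterostilbene A or pterostilbene B. After quantile normalization 1 of the 18 general factors rose and 6 fell, where 21.6% and 30.4% of all genes did. After median centring only *SSL2* rose and 7 fell, where 19.3% and 39.0% of all genes did. Of 10 elongation factors none rose and 3 (30.0%) fell, against 18.4% of all genes, namely *CDC73* of the Paf1 complex (-0.64) and *SPT4* (-0.47) and *SPT5* (-0.40), which together form the elongation factor that clamps the polymerase on DNA. *SPT4* and *SPT5* did not pass after reference gene centring, and 1 of the 10 fell with the replicate block and without pterostilbene A or pterostilbene B. Of 8 genes of polymerase assembly and nuclear import, 4 rose and none fell, against 35.8% and 18.4% of all genes, with *RTP1* at 1.29, *GPN2* at 0.63 and *IWR1* at 0.62 on the log2 scale, and of these *RTP1* also rose after quantile normalization and median centring.

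Transcripts of polymerase III were represented by 3 of the 4 listed, and all rose. *SNR52*, a small nucleolar RNA, had a mean signal of 247 ± 51.0 in treated cells and 8.47 ± 0.25 in control cells (SD, n = 3 each), *RPR1*, the RNA of RNase P, had 841 ± 261 in treated cells and 73.5 ± 3.46 in control cells, and *SNR6*, the U6 spliceosomal RNA, had 539 ± 75.9 in treated cells and 92.5 ± 17.2 in control cells. The log2 fold changes of *RPR1* and *SNR6* were 3.47 and 2.55. *RPR1* and *SNR52* lie in the stretch of pterostilbene C, and without that array *RPR1* had 3.65. No fold is given for *SNR52*, whose control signals of 8.2 to 8.7 did not exceed the 10th percentile of all signals (8.7). Beside them the poly-A controls, bacterial RNAs that the labelling kit provides for addition before labelling, were higher by a median of 4.79-fold on the pterostilbene arrays. Over 18 probe sets named for the hybridization controls, added after labelling, the median was 1.07-fold. These include probe sets for the opposite strand, so this median need not be the change of those controls. The part of the poly-A shift in the result was not tested. The signals of these RNAs are steady-state levels with a labelling kit that primes on poly-A tails, so they do not measure the activity of polymerase III.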

How the data were processed

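The authors deposited intensity signals on a linear scale for each array, computed by Affymetrix GCOS 1.1 according to the submitters' processing notes and scaled per array, with a 2% trimmed mean of 500.4 to 500.5. The summarisation algorithm and the scaling target are not given in the sources used here. Signals were converted to log2 after 23 signals of 0 were raised to 0.1, and 60 control probe sets were left out. Gene names come from the platform annotation, which gave 1 gene for 6504 of the 9275 tested probe sets, and all 32 members were found in the RefSeq gene table of assembly R64, from which no coordinates are given. Where a gene had several probe sets, the brightest by mean log2 signal over the arrays stood for it. The comparison used limma 3.58.1 (R 4.3.3, lmFit followed by eBayes). Its p-values were adjusted by Benjamini-Hochberg over the tested probe sets, and 95% intervals use its moderated errors. The procedure was also run on simulated data with far fewer changed probe sets and no low stretches. That run therefore does not vouch for the calls made here. Homologous pairs were compared by exact permutation in scipy 1.17.1. The number of arrays limits the precision. Analyses were repeated with quantile normalization, centring of the arrays on their median or on reference genes, a pseudocount, the dimmest probe sets removed, other moderation, the methods' t-test, a replicate block, averaged probe sets and each array left out.

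The members and the lists were chosen with earlier results of these data known. The genes named are all members and, of each other list, up to 3 that passed in each direction, with *MAF1* and *SPT15*. *BRF1*, the TFIIIC range and the TFIIIC genes named were added after their values were seen. The probe set stretches were found, and their bounds set, after the signals were seen. A search for promoter motifs that had been planned was not run.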

Additional observations from a re-analysis of the deposited data

How the results depend on the processing

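*RRN3*, *RPB8* and *RPC31* kept their call and direction in each of the 16 alternatives run on them. Over all probe sets, 3105 rose and 1295 fell with the signals as deposited, against 1799 and 2272 with quantile normalization, 1760 and 2856 with median centring, and 848 falling with reference gene centring. Of the members, 11 fell with quantile normalization, 21 with median centring and 2 with reference gene centring, where 6 rose, and 2 rose with a pseudocount of 8.7, with the dimmest 25% of probe sets left out or with the methods' t-test, and 3 with trend and robust moderation. Over all genes, 2025 of 5656 rose with the signals as deposited. In the last 4 settings, in the order given, 2132, 2063, 1864 and 2167 genes rose. The 2063 are out of fewer genes, because genes whose probe sets were left out as dim were not counted. With the stretches of control B and pterostilbene C treated as missing, an alternative chosen after seeing the data, 3 rose (*RRN3*, *RPO31* and *RPA14*) and 6 fell, with *RPA43* among them and *RPC34* and *RPB10* not, and 12 of 17 homologous pairs did not overlap, which is easier with fewer arrays. Leaving out each array in turn gave 1 to 2 members higher and 2 to 7 lower, 6 to 10 pairs without overlap, and 2472 to 2845 probe sets higher and 919 to 1363 lower. *RPA34*, *RPC34* and *RPC25* were each lost without control A, control B, pterostilbene A or pterostilbene B, *RPC25* also without control C, *RPB10* when any array other than control A was left out, and *RPO26* without pterostilbene B. The fewest falls, 2, came without pterostilbene B, 3 were left without pterostilbene A, and 4 without control A or without control B, where fewer arrays also weaken the test. Median centring turned *RPB7* (-0.44), *RET1* (-0.37), *RPC53* (-0.43), *RPC37* (-0.41) and *RPC19* (-0.39) to falls, and quantile normalization *RPC53* (-0.34). Beyond the loss of arrays, the cause of these changes was not tested.

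Arrays of the 2 groups with the same letter did not deviate together, with correlations of -0.02, -0.04 and -0.01, so the letters were not taken as pairs. With the replicate block 2533 probe sets rose and 873 fell, and of the members 1 rose and 3 fell.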
